A study of Homo sapiens with 29 samples.

Results

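The accessible chromatin around GATA2 was described in 22Rv1, a human prostate cancer cell line, from the ATAC-seq peaks of 29 libraries that overlapped a 250 kb window on chromosome 3 (build hg19, chr3:128100000-128350000). GATA2 occupies chr3:128198265-128212030 on the minus strand, so its start lies at the higher coordinate, at 128212030. In ATAC-seq a transposase inserts adapters where DNA is accessible, and a peak marks a stretch with more insertions than its surroundings. The members were chosen by position alone: overlapping or touching peaks of all libraries were merged, which gave 22 regions in the window out of 166696 in the genome. A library was said to hold a region when one of its peaks overlapped that region by at least 1 bp. The outermost members lay 110.8 kb from the GATA2 start on the gene's side (held by 29 libraries, median fold 8.76) and 131.8 kb upstream of it (held by 1 library, fold 4.11). The nearest regions outside the window lay 10.99 kb below it (held by 2 libraries, median fold 5.15) and 18.91 kb above it (held by 29 libraries, median fold 12.9).

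From parental 22Rv1 cells came 15 libraries, 3 for each of 5 treatments: vehicle (DMSO, 0.1%), the stereoprobe WX-02-23 at 20 µM, the stereoprobe WX-02-43 at 20 µM, and 10 nM or 100 nM pladienolide B (PladB), which inhibits splicing through SF3B1. WX-02-23 is a covalent ligand of the pioneer factor FOXA1 and WX-02-43 is its stereoisomer, used as the control compound. From engineered 22Rv1 cells came 14 libraries, 2 for each of 7 conditions, and all of these cells, vehicle controls included, overexpressed Y36C-PHF5A, a form of a spliceosome subunit known for resistance to PladB. The first engineered line carried doxycycline (Dox)-inducible WT-FOXA1 and was given DMSO, WX-02-23 (20 µM) or PladB (100 nM) with Dox, and DMSO without Dox. The other carried Dox-inducible C258A-FOXA1, in which the cysteine that WX-02-23 engages is replaced, and was given the same 3 treatments with Dox. Every treatment lasted 3 h. The genotype labels name no change to the cells' own FOXA1 genes, and the sources used here do not say whether a line was 1 clone. The labels number the replicates of a group without saying whether they came from separate cultures, so a test measures only the spread between these libraries. Parental and engineered lists carry the names of different processing folders, so cell line and batch cannot be told apart and the 2 sets are set side by side without a test.

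GATA2 is a zinc-finger transcription factor that binds GATA sequences. In prostate cancer cells it is known as a partner of the androgen receptor and of FOXA1 at enhancers, and it is also known to sustain androgen receptor expression. FOXA1 is a forkhead protein that binds nucleosomal DNA and opens it for other factors. Genes of developmental regulators such as GATA2 are often surrounded by several distal open regions, and GATA2 itself has alternative first exons. Whether any region described here acts on GATA2 was not tested, and expression was not measured in these libraries. Markers of prostate cells were not checked, since no hg19 annotation was used here.

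The promoter sequences are shown because the upstream start of GATA2 held no peak in any library while a stretch inside the gene was open in all of them. They come from RefSeq on build GRCh38.p14, whose coordinates were not converted to hg19, so only distances from the upstream start are set beside the peaks. Each sequence is the 250 bases before a start, read 5′ to 3′ on the gene's own strand, with CpG dinucleotides in capitals. RefSeq gives GATA2 an upstream start (window chr3:128493202-128493451, minus strand) and an internal start 4671 bp farther into the gene (window chr3:128488531-128488780, minus strand). The antisense gene GATA2-AS1 starts 3998 bp into GATA2 on the opposite strand (window chr3:128488953-128489202, plus strand).
GATA2 upstream start: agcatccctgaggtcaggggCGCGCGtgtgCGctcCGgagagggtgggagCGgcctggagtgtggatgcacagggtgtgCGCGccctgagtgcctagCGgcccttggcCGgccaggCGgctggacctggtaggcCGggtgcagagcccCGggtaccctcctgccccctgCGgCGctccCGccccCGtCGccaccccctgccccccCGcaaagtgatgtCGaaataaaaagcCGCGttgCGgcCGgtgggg
GATA2 internal start: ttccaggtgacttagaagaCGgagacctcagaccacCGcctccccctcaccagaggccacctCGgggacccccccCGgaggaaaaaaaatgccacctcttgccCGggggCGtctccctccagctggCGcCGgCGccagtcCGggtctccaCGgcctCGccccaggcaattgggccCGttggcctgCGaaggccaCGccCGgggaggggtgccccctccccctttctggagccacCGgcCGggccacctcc
GATA2-AS1 start: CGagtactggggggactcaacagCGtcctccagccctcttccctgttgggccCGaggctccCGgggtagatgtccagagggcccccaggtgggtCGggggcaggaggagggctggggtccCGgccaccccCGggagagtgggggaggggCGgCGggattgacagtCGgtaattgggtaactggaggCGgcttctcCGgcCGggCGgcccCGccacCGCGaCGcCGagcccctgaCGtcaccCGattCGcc
These windows were rich in G and C: the upstream GATA2 window had 72.8% GC and 24 CpG, the internal window 71.2% and 18, and the antisense window 72.4% and 22. The median over 35116 RefSeq promoter windows of that length was 58.0% GC and 11 CpG. The forkhead motifs TGTTTAC and TGTTTGC occurred in 3.0% and 3.2% of all windows, the GATA motifs AGATAA and TGATAA in 9.2% and 6.7%, and AGAACA, one arm of the palindromic androgen receptor element, in 12.4%, searched on both strands with overlaps allowed. None of these letters occurred in the 3 windows shown, which says only that they are not in these 250 bases.

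Each library is a list of 62832 to 98193 peaks with no read totals. The authors' fold enrichment of a peak, the value used throughout, is the pileup at its summit plus 1 over the background expected there plus 1, within the same library. From the deposited fold and p-value the whole number of reads at each summit was recovered for 400 of 400 peaks in the window. The lowest background of a library, which serves as a relative depth, was 0.546 to 1.502 reads per base, and the weakest summit in a list had 5 to 8 reads. A region without a peak can therefore be open below that limit, and signal in fewer cells cannot be told apart from less signal per cell. To set libraries of different depth side by side, a region's fold was also given as a rank, its percentile among the 35901 regions that all 29 libraries held, within the same library.

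Of the 22 regions, 3 lay inside GATA2, 12 upstream of its start and 7 beyond its 3′ end. Regions are named by the distance of their centre from the start. All 29 libraries held 9 of them (40.9%, against 21.5% of regions in the genome), 4 were held by 1 library and 9 by 2 to 28. The 9 shared regions were 611 to 1244 bp wide with median folds of 5.03 to 19.5, while the other 13 were 150 to 690 bp wide with median folds of 3.21 to 6.69. Summits of the shared regions had 20 to 88 reads and those of the others 6 to 54. The 2 sets overlapped in fold and in reads: the weakest shared region, 109.5 kb from the start, had a median fold of 5.03, under that of several regions held by fewer libraries.

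**Figure D1:**
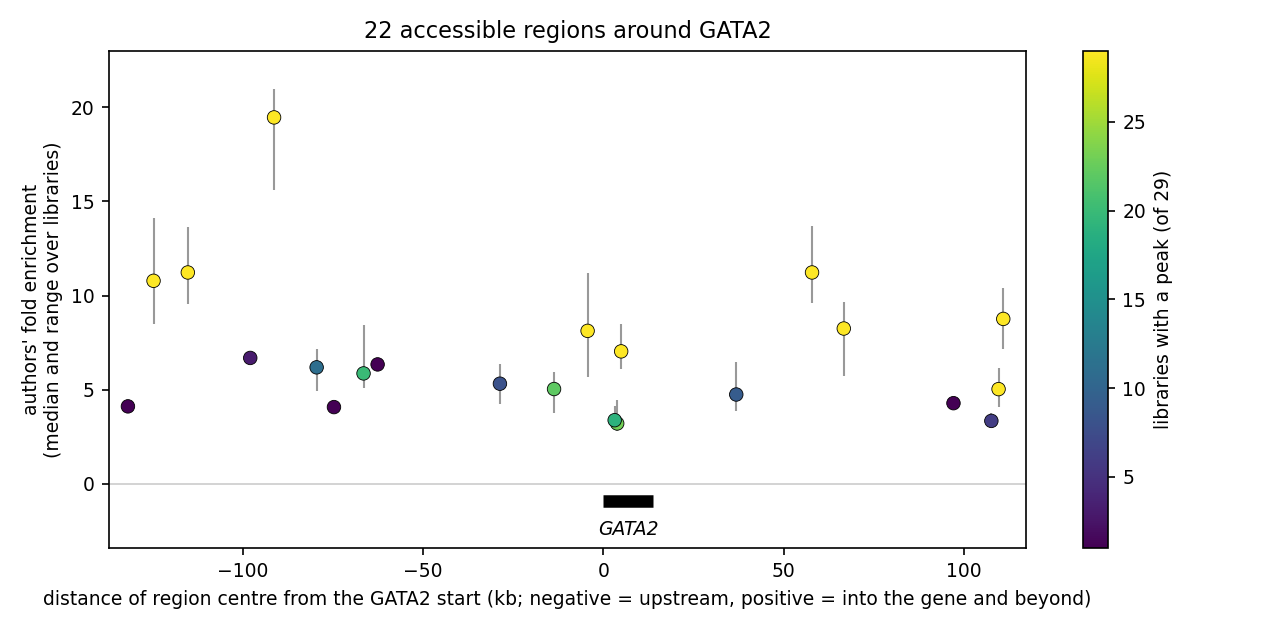
Position and strength of the 22 regions around GATA2. Each point is 1 region, placed by the distance of its centre from the GATA2 start in kb (negative is upstream, positive runs into the gene and beyond its 3′ end); the vertical axis is the authors' fold enrichment (median, with a line from the lowest to the highest library), the colour is the number of libraries with a peak, and the black bar is the gene. The highest point is the region 91.3 kb upstream, with a median fold of 19.5, and no point lies over the upstream start.

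No peak covered the upstream GATA2 start, at 128212030 on hg19, in any library. The nearest region upstream began 3830 bp before it and the nearest inside the gene ended 2840 bp after it. The gene instead held a run of 3 regions between 2840 and 5506 bp from the start. By distance, the internal RefSeq GATA2 start (4671 bp) falls within the 4.9 kb region, which spans 4263 to 5506 bp. The GATA2-AS1 start (3998 bp) falls within the 3.8 kb region, which spans 3468 to 4157 bp. This takes the upstream RefSeq start on GRCh38.p14 as the hg19 start used here, which was not checked. The main region of the run, centred 4.9 kb into the gene (chr3:128206524-128207767), was the widest region of the window at 1244 bp and was open in all 29 libraries. Its fold was 6.67, 6.11 and 6.50 in parental DMSO, 6.36, 7.11 and 6.75 with WX-02-23, 6.11, 6.44 and 6.24 with WX-02-43, 6.31, 7.04 and 6.08 with PladB at 10 nM, and 7.22, 7.12 and 7.51 with PladB at 100 nM. In the engineered groups it was 6.45 to 8.47. The 3 parental libraries at 100 nM PladB stood above the 3 DMSO libraries, and the other parental groups overlapped with DMSO.

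This intragenic region had the most reads at its summit of all 22, with a median of 74, and at the same time a high local background of 9.77 reads per base, so its median fold was 7.03 and its median rank only 13.4. The region 91.3 kb upstream had a median of 69 reads over a background of 2.61. The order of the regions by fold is therefore not their order by reads. The summit of the 4.9 kb intragenic region sat at 1 of 2 places: between 4755 and 4822 bp from the start in 8 libraries and between 5155 and 5266 bp in 21. The nearer place was the summit in 3 of 3 libraries with WX-02-43, 2 of 3 with PladB at 10 nM, 1 of 3 with DMSO, 1 of 3 with WX-02-23, 0 of 3 with PladB at 100 nM, and 1 of 14 engineered libraries. In none of the 10 comparisons made below did the place differ between every library of one group and every library of the other.

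The 2 other intragenic regions were weak shoulders on the same raised background. The region 3.8 kb into the gene (chr3:128207873-128208562) was held by 13 of 15 parental and 10 of 14 engineered libraries, with a median fold of 3.21, a median of 35 summit reads and a local background of 10.1. It was present in every library of 6 of the 12 groups and in at least 1 library of the other 6. The region 3.1 kb into the gene (chr3:128208764-128209190) was held by 10 of 15 parental and 9 of 14 engineered libraries, with a median fold of 3.38 and a median of 38 reads. Only the WT-FOXA1 libraries with WX-02-23 lacked it in both replicates, and 1 of the 2 WT-FOXA1 DMSO libraries with Dox lacked it too. Both had as many reads as some shared regions, and their low folds came with the background of 10.1 and 10.2 reads per base.

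Upstream of GATA2, the nearest shared region was centred 4.4 kb before the start (chr3:128215860-128216915, 1056 bp). Its fold ran from 5.68 to 11.2 over the libraries, for its size the widest range of the 9, with a median of 8.12 and a median of 35 reads. In parental cells its fold was 8.51, 7.89 and 8.45 with DMSO, 8.26, 8.01 and 8.90 with WX-02-23, and 6.84, 7.08 and 6.41 with WX-02-43. All 3 WX-02-43 libraries lay under all 6 of the others. With PladB it was 9.61, 10.3 and 7.64 at 10 nM and 7.19, 9.37 and 10.2 at 100 nM, both overlapping with DMSO. In 7 libraries 2 separate peaks fell within this region.

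The region 91.3 kb upstream (chr3:128303001-128303675) was the strongest by fold. Its fold was 15.6 to 20.9 over the 29 libraries, with a median of 19.5, and its median rank of 99.5 put it among the highest regions of the genome that all libraries shared. The group means were 19.3 ± 0.502 (SD, n = 3) in parental DMSO, 20.2 ± 0.668 (SD, n = 3) with WX-02-23, 18.8 ± 2.18 (SD, n = 3) with WX-02-43, 19.3 ± 0.193 (SD, n = 3) with PladB at 10 nM and 19.0 ± 0.323 (SD, n = 3) at 100 nM. The lowest values were 15.6 in 1 WT-FOXA1 library with WX-02-23 and 16.4 in 1 parental library with WX-02-43, which also had the highest backgrounds of all libraries, 1.256 and 1.502 reads per base. The part of depth in these 2 values was not tested.

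The 2 farthest shared upstream regions lay 115.2 kb (chr3:128326809-128327694) and 124.7 kb (chr3:128336186-128337304) before the start. The first had a median fold of 11.2 and 43 summit reads, and the second 10.8 and 64. The 115.2 kb region had folds of 11.8, 10.3 and 11.1 in parental DMSO and of 12.9, 11.8 and 13.6 with WX-02-23. Of the 9 shared regions, the medians of the 2 sets of cells were farthest apart at 124.7 kb, with 8.48 to 11.4 in parental libraries (median 9.82) and 10.2 to 14.1 in engineered ones (median 12.4). These ranges overlapped.

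Beyond the 3′ end, 4 regions were shared by all libraries. The region 57.8 kb from the start (chr3:128153826-128154709) had a median fold of 11.2 (9.58 to 13.7) with 59 reads, and the region at 66.6 kb (chr3:128145008-128145779) had 8.25 (5.75 to 9.67) with 31 reads. At 110.8 kb (chr3:128100835-128101665) the median fold was 8.76 (7.14 to 10.4) with 60 reads. Its neighbour at 109.5 kb (chr3:128102201-128102811) was the weakest of the 9, with 5.03 (4.10 to 6.17) and 35 reads. In the RefSeq gene order DNAJB8-AS1 and DNAJB8 follow GATA2 on this side. On the other come GATA2-AS1, whose start lies inside GATA2, and then LOC90246, TMED10P2 and LINC01565. Which of these genes a region falls in was not analysed here.

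**Figure D2:**
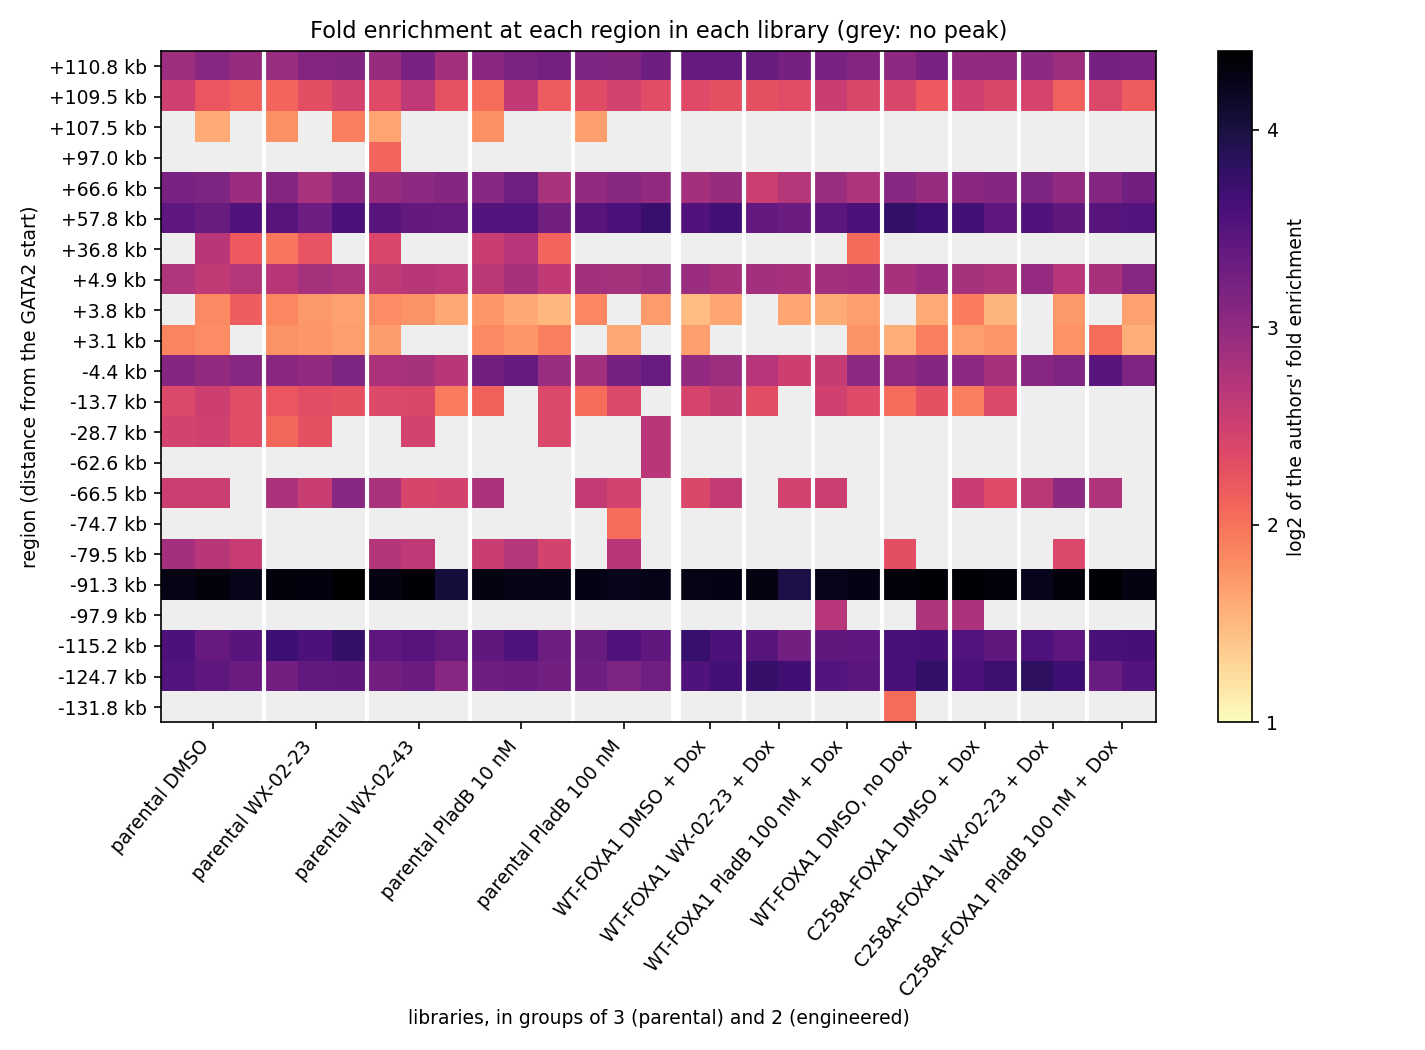
Fold enrichment of every region in every library. Rows are the 22 regions by distance from the GATA2 start in kb, columns are the 29 libraries grouped by line and treatment (3 per parental group, 2 per engineered group), the colour is log2 of the authors' fold, and grey means no peak. The 9 regions open in all libraries form unbroken rows, the 91.3 kb upstream row being the darkest, and the gaps fall in the weak regions.

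Within a group the replicates of the 9 shared regions were close: over 108 combinations of region and group, the SD of the fold was 0.25% to 22.7% of its mean, with a median of 5.6%. Between groups the changes were of like size. Over the 90 combinations of a shared region and a comparison, the mean fold after treatment divided by that of its control ran from 0.784 to 1.32 with a median of 0.989, and both extremes were the 4.4 kb upstream region (WT-FOXA1 with WX-02-23 and C258A-FOXA1 with PladB).

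**Figure D3:**
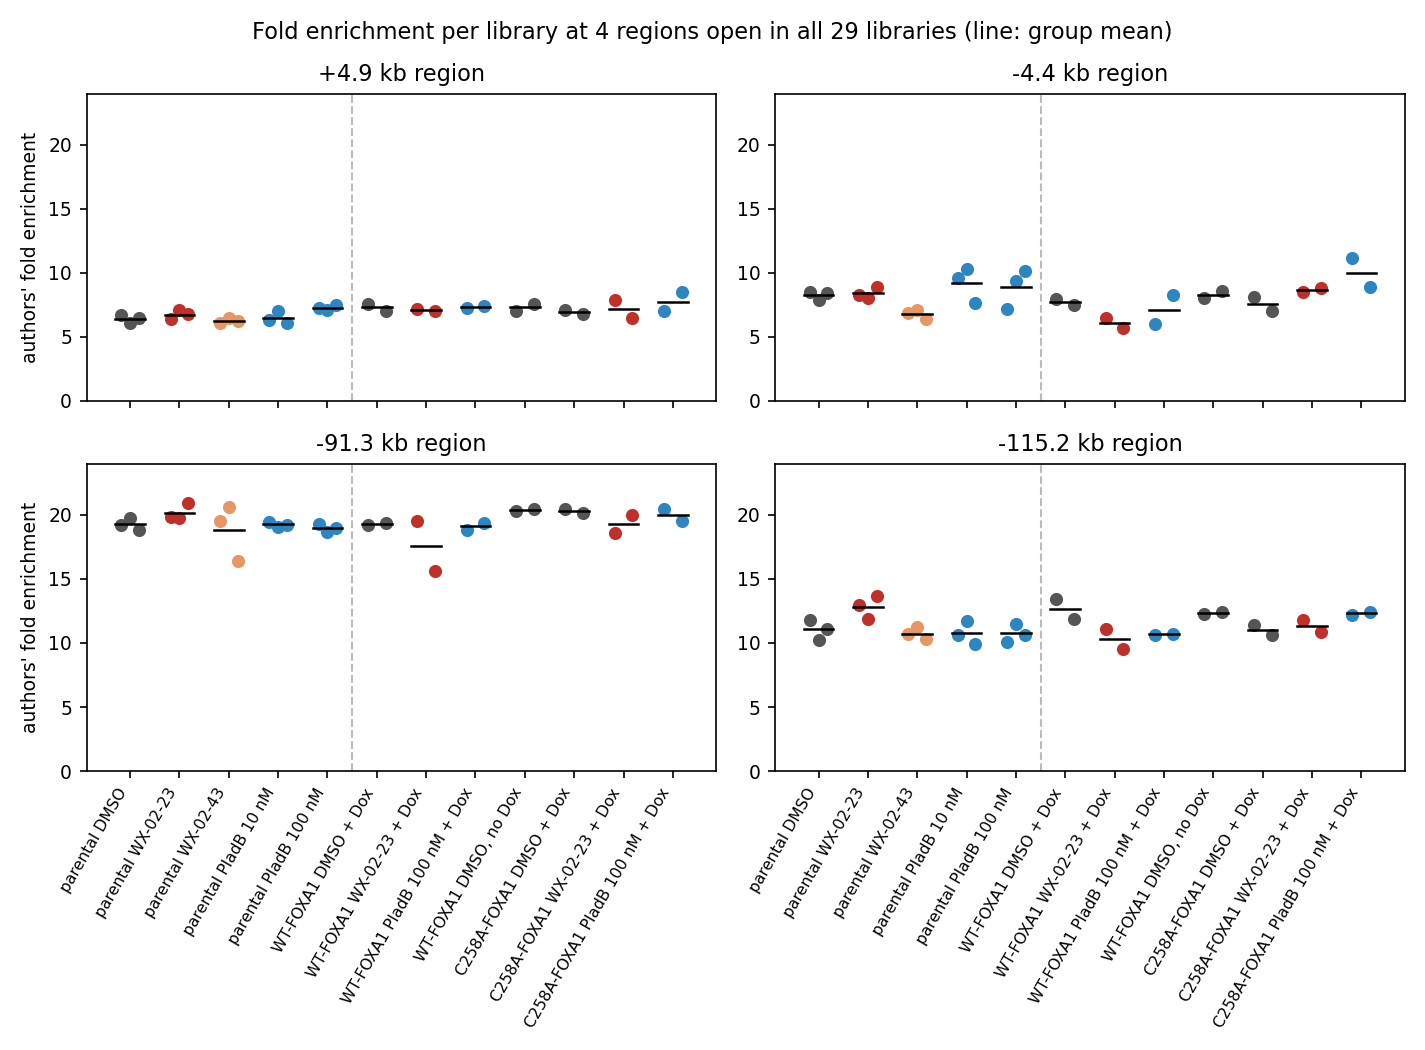
Fold enrichment per library at 4 regions that all 29 libraries held: 4.9 kb into GATA2, and 4.4, 91.3 and 115.2 kb upstream. Points are libraries, horizontal lines are group means, the dashed line separates parental from engineered groups, and the vertical axis, from 0, is the authors' fold. The 91.3 kb region stays between 15.6 and 20.9, and the 3 WX-02-43 points at the 4.4 kb upstream region, 6.41 to 7.08, lie under the DMSO points, 7.89 to 8.51.

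Among the weak regions, the one 79.5 kb upstream (chr3:128291434-128291710) separated parental WX-02-23 from DMSO. Its fold was 7.17, 6.42 and 5.88 in the 3 DMSO libraries, on 15, 16 and 13 summit reads, and none of the 3 WX-02-23 libraries had a peak there. With WX-02-43 it was 6.60 and 6.19 in 2 libraries with no peak in the third, and with PladB at 10 nM it was 5.85, 6.53 and 5.44. At 100 nM PladB 1 library of 3 held it, with a fold of 6.34. The stereoisomer and the lower PladB dose therefore left the region detectable in most libraries. Of the 14 engineered libraries only 2 held it, 1 WT-FOXA1 library without Dox (4.91) and 1 C258A-FOXA1 library with WX-02-23 (5.21). The library backgrounds were 0.923 to 1.121 reads per base with WX-02-23 and 0.881 to 1.002 with DMSO, and the weakest summits anywhere in the 3 WX-02-23 lists had 6 or 7 reads.

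The region 66.5 kb upstream (chr3:128278364-128278717) was held by 11 of 15 parental and 9 of 14 engineered libraries, with a median fold of 5.86 on 12.5 reads. In parental cells it was 5.73 and 5.81 in 2 DMSO libraries and absent in the third, 6.85, 5.85 and 8.41 with WX-02-23, and 6.95, 5.34 and 5.49 with WX-02-43. Neither WT-FOXA1 library without Dox held it, while both with Dox and DMSO did, at 5.24 and 5.99. Both C258A-FOXA1 libraries with WX-02-23 held it, at 6.29 and 8.25, beside 5.88 and 5.10 with DMSO. This was the one region of the window that met the rule for a gain in any comparison.

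The region 13.7 kb upstream (chr3:128225460-128226004) was held by 13 of 15 parental and 9 of 14 engineered libraries, with a median fold of 5.03 on 16.5 reads. Its fold was 5.17, 5.68 and 4.99 in parental DMSO (19, 23 and 21 reads) and 4.69, 4.93 and 4.82 with WX-02-23 (16, 14 and 14 reads), so the folds and the reads of these groups did not overlap, although their ranks did. With WX-02-43 it was 5.13, 5.23 and 3.81. In the C258A-FOXA1 line both DMSO libraries held it, at 3.74 and 5.16, and none of the 4 libraries with WX-02-23 or PladB did. In the WT-FOXA1 line it was 5.37 and 5.96 with DMSO, 4.96 in 1 of 2 libraries with WX-02-23, and 5.59 and 5.07 with PladB.

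The region 28.7 kb upstream (chr3:128240623-128240900) was found in parental cells only. It was held by 3 of 3 DMSO libraries (5.45, 5.57 and 4.98), 2 of 3 with WX-02-23 (4.24 and 4.88), and 1 of 3 in each of the WX-02-43 and both PladB groups. None of 14 engineered libraries held it. The regions 36.8 kb (chr3:128175046-128175348) and 107.5 kb from the start, both beyond the 3′ end, were also held mostly by parental libraries, 8 parental and 1 engineered at the former and 6 parental and 0 engineered at the latter. The region 97.9 kb upstream (chr3:128309845-128310114) was the reverse, held by 3 engineered libraries of 3 different groups, at 6.47, 6.69 and 6.86 on 11 reads each. In all, 5 regions were held by parental libraries only, 3 of them by 1 library, and 2 by engineered libraries only, 1 of them by 1 library. Parental lists were longer, with 82538 to 98193 peaks against 62832 to 92658, and the part of depth in these differences was not tested. The 4 regions held by 1 library had 6 to 12 summit reads.

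**Figure D4:**
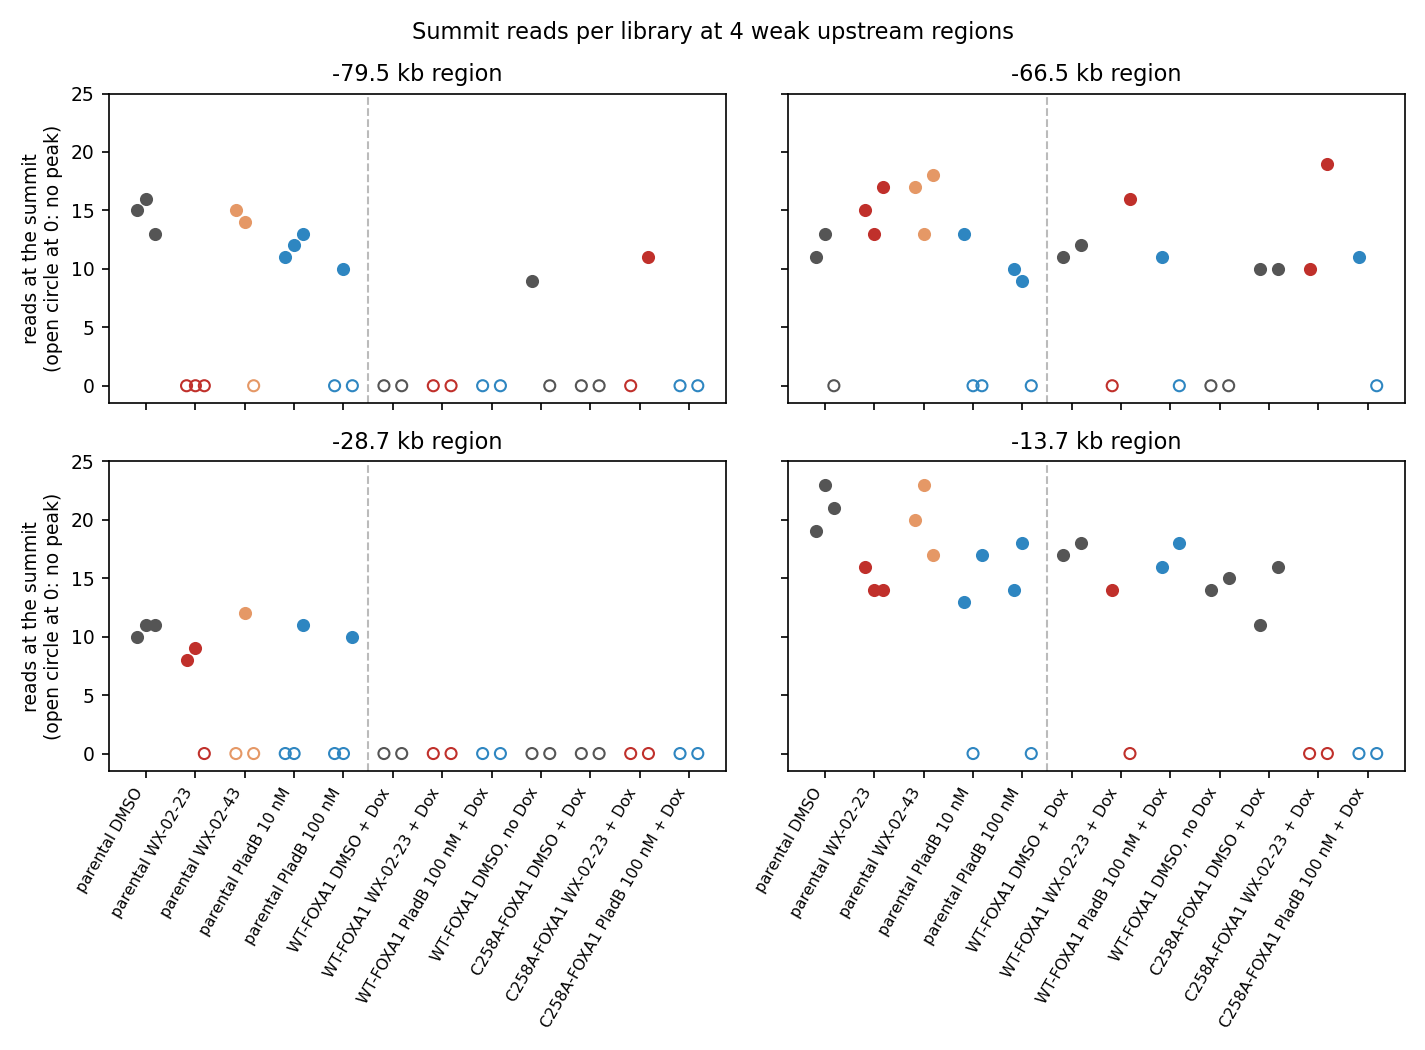
Reads at the summit of 4 weak upstream regions in each library. Filled points are the recovered whole reads at the summit, open circles at 0 mark libraries without a peak (not a measured 0), colours mark the treatments, and the dashed line separates parental from engineered groups. At 79.5 kb upstream the 3 DMSO points have 13 to 16 reads and the 3 WX-02-23 libraries have no peak, and at 28.7 kb upstream no engineered library has a peak.

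The comparisons ask whether engaging FOXA1 with WX-02-23, its stereoisomer, the splicing inhibitor, or induction of FOXA1 changed which regions around GATA2 were open. A region was called lost when every control and no treated library held it, and gained in the reverse case. With WX-02-23 in parental cells, 1 of 17 regions (5.9%) was lost, the one 79.5 kb upstream, where 1.18% of regions in the genome were lost, and 0 were gained, where 1.82% were. A single region is too few to set the window apart from the genome. The number of regions held was 15 ± 1.0 (SD, n = 3) against 15 ± 1.73 (SD, n = 3) in DMSO, a difference of 0 (exact two-sided permutation p = 1; adjusted p = 1.0 by Benjamini-Hochberg over 5 parental comparisons). The exact 90% interval of this difference ran from -3 to 2 regions. With 3 against 3 libraries no p under 0.1 is possible.

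The stereoisomer WX-02-43 lost 0 and gained 0 of 18 regions against DMSO, with 0.369% and 0.34% in the genome, and held 14.3 ± 2.52 (SD, n = 3) regions. The difference from DMSO was -0.667 (exact permutation p = 1; 90% interval from -5 to 3). Compared directly at the same dose and time, WX-02-23 held 0.667 regions more than WX-02-43 (exact permutation p = 0.9; 90% interval from -3 to 4), and 0 of 18 regions were gained or lost between them, with 1.6% and 1.07% in the genome. The comparisons with DMSO in parental cells all use the same 3 DMSO libraries. These intervals are wide, so the test does not show that the stereoisomers act alike at this locus.

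With PladB at 10 nM parental cells held 14.7 ± 1.53 (SD, n = 3) regions (difference -0.333, exact permutation p = 1), and 0 of 17 were gained or lost (0.408% and 0.556% in the genome). At 100 nM they held 13 ± 1.0 (SD, n = 3), a difference of -2.0 (exact permutation p = 0.3, adjusted p = 1.0; 90% interval from -5 to 0), and again 0 of 19 were gained or lost (0.187% and 1.68% in the genome). The length covered by peaks in the window was 6213 ± 652 bp (SD, n = 3) at 100 nM and 7455 ± 651 bp (SD, n = 3) in DMSO. Every library at 100 nM covered less than every DMSO library, a difference of -1242 bp with an exact permutation p of 0.1, the smallest possible, and 0.5 after adjustment. The 100 nM libraries also had lower backgrounds, 0.662 to 0.734 reads per base against 0.881 to 1.002 in DMSO, and shorter lists. The part of depth in the shorter coverage was not tested.

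**Figure D5:**
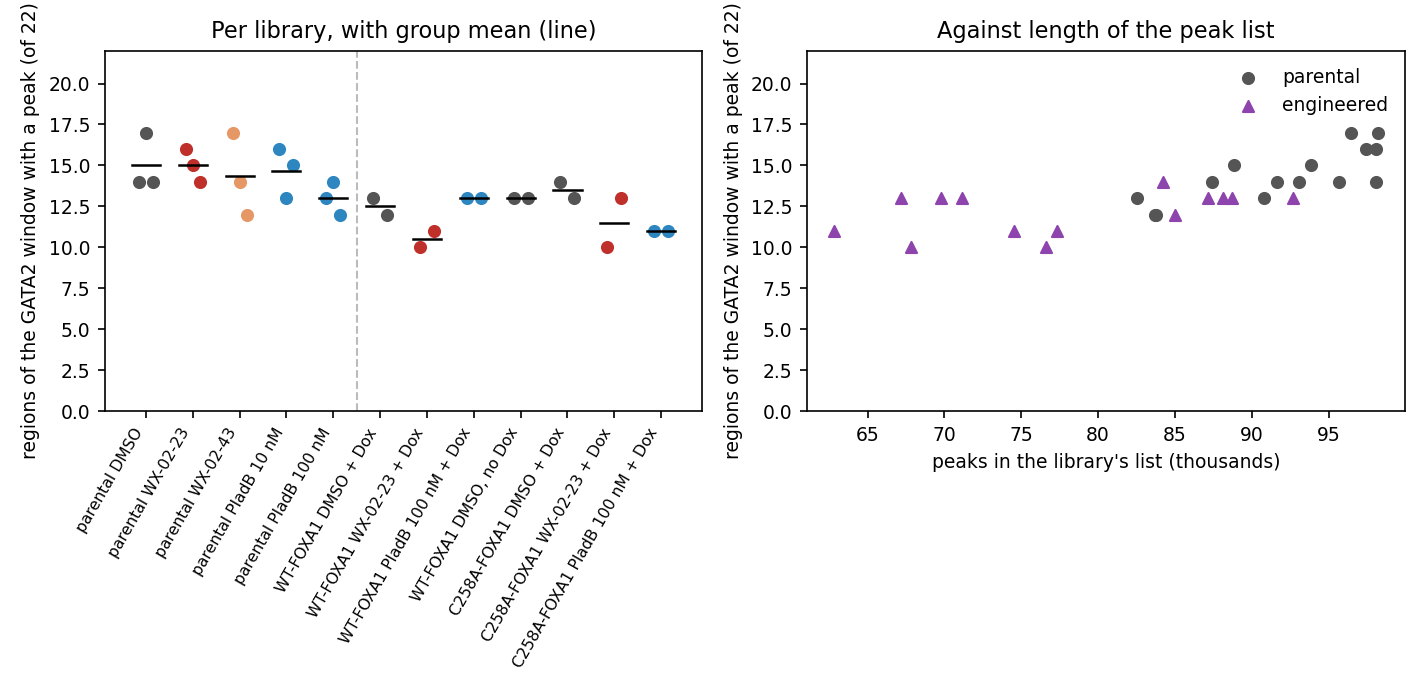
Number of the 22 regions with a peak in each library. Left, by group, with points for libraries, a line for the group mean and a dashed line between parental and engineered groups; right, the same number against the number of peaks in the library's list. Group means lie between 10.5 and 15, and every library with 16 or 17 regions has one of the longest lists.

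In the WT-FOXA1 line, WX-02-23 libraries held 10.5 ± 0.707 (SD, n = 2) regions and DMSO libraries 12.5 ± 0.707 (SD, n = 2), a difference of -2.0. With 2 against 2 libraries the smallest possible exact p is 0.3333, so no call can be made. None of 13 regions was lost by the rule, where 11.7% of regions in the genome were, and none was gained, where 1.31% were. These 13 regions are too few to set the window apart from those shares. The WX-02-23 lists of this line had 62832 and 67815 peaks against 85009 and 88140, and with all lists set to equal length the difference was 0.5. The backgrounds of these lists were 1.256 and 0.903 reads per base with WX-02-23 against 0.844 and 0.869. Equal length here therefore does not stand for equal depth, and the cause of the shorter lists was not tested. In the same line PladB left 13.0 regions in both libraries, with 0 of 15 gained or lost (0.915% and 3.05% in the genome).

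Dox in the WT-FOXA1 line gained 1 of 16 regions (6.2%), the one 66.5 kb upstream, beside 13.2% in the genome, and lost 0, beside 1.1%. With 1 region gained, the window cannot be set apart from the genome. The lists had 85009 and 88140 peaks with Dox against 67195 and 69814 without, and with lists of equal length, or with 50% of a region covered, 0 regions were gained. The number held was 12.5 ± 0.707 (SD, n = 2) with Dox and 13.0 in both libraries without.

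In the C258A-FOXA1 line, WX-02-23 lost 1 of 15 regions (6.7%, with 2.55% in the genome) and gained 0 (2.37%), and PladB lost 1 of 14 (7.1%, with 4.67%) and gained 0 (0.806%). The lost region was the one 13.7 kb upstream both times, and both counts use the same 2 DMSO libraries. It was no longer lost when only peaks with a −log10 q of at least 5 counted, since its peak in DMSO replicate 1 had a −log10 q of 3.37. The number of regions held was 13.5 ± 0.707 (SD, n = 2) with DMSO, 11.5 ± 2.12 (SD, n = 2) with WX-02-23 and 11.0 in both libraries with PladB. The PladB libraries had the lowest backgrounds of the series, 0.546 and 0.587 reads per base. The change with WX-02-23 was -2.0 regions in both lines, so the difference between the lines was 0 (exact permutation p = 1 over 36 arrangements of 8 libraries). The arrangements swapped line labels within each treatment, so they also assume that the lines do not differ under DMSO. With a library left out this difference ran from -1.5 to 1.5. With 2 libraries per group it does not show that the lines respond alike at this locus.

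Ranks were then compared for regions held by every library of both groups, and a region was called apart when the ranks of the groups did not overlap. With WX-02-23 in parental cells 1 of 10 regions stood apart above DMSO, the one 115.2 kb upstream, and 0 below, where 9.77% and 10.1% of regions in the genome did. Its rank was 73.3 ± 6.54 (SD, n = 3) against 55.9 ± 10.3 (SD, n = 3) in DMSO and 55.2 ± 5.46 (SD, n = 3) with WX-02-43, so it also stood apart from the stereoisomer. Its summit reads were 55, 46 and 46 with WX-02-23, 52, 48 and 44 with DMSO, and 44, 54 and 58 with WX-02-43. The reads overlapped, and with reads ranked in place of folds the difference from DMSO turned to -2.27 and that from WX-02-43 to -2.69. The local background under the summit was 3.33, 2.97 and 2.445 reads per base with WX-02-23 against 3.48, 3.78 and 3.045 with DMSO, so the higher fold rank came without more reads.

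WX-02-43 stood apart below DMSO at 2 of 10 regions, 4.4 kb and 124.7 kb upstream, and above at 0 (5.52% and 5.67% in the genome). At the 4.4 kb upstream region the rank was 13.3 ± 2.05 (SD, n = 3) with WX-02-43, 24.3 ± 3.91 (SD, n = 3) with DMSO and 24.9 ± 3.42 (SD, n = 3) with WX-02-23. Summit reads there were 32, 41 and 40 with WX-02-43, 38, 36 and 39 with DMSO and 35, 35 and 31 with WX-02-23, so WX-02-43 and DMSO overlapped. The local background was 3.825, 4.935 and 5.40 reads per base with WX-02-43 and 3.585, 3.69 and 3.735 with DMSO, higher in each WX-02-43 library. Ranked by reads, the difference between WX-02-23 and WX-02-43 turned to -5.13. Between the stereoisomers 2 of 12 regions stood apart with WX-02-23 above, those 4.4 kb and 115.2 kb upstream, and 0 below (8.84% and 9.38% in the genome).

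PladB at 10 nM set 0 of 10 regions apart in either direction (6.03% above and 6.37% below in the genome). At 100 nM 2 of 9 stood above DMSO, 110.8 kb beyond the start and 4.9 kb into the gene, and 1 below, 124.7 kb upstream (8.37% and 8.89%). The 4.9 kb intragenic region had a rank of 15.7 ± 2.56 (SD, n = 3) against 9.60 ± 1.90 (SD, n = 3), on 74, 70 and 68 reads against 76, 76 and 77. Its reads thus lay under those of DMSO while its fold lay above, in libraries of lower background. The 124.7 kb upstream region lay lower by both measures, with 52, 42 and 42 reads against 63, 68 and 59, and a rank of 37.6 ± 5.31 (SD, n = 3) against 52.0 ± 8.65 (SD, n = 3). These libraries were shallower throughout.

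In the engineered lines ranks of 2 against 2 libraries stood apart often anywhere in the genome, and the counts in the window were read against that. WX-02-23 in the WT-FOXA1 line stood above at 4 of 9 regions and below at 0 (29.1% and 20.4% in the genome), those 110.8 and 109.5 kb beyond the start, 4.9 kb into the gene and 124.7 kb upstream. At 3 of the 4 the fold itself was lower than in DMSO, with ratios of 0.937, 0.989 and 0.971, and at the 124.7 kb upstream region it was 1.08. PladB in this line stood above at 2 and below at 2 of 11 (16.9% and 16.6%). Of those above, the region 3.8 kb into the gene had a mean rank of 0.06 against 0.02, at the bottom of the scale. Dox in this line stood above at 2 and below at 4 of 10 (17.7% and 20.5%). In the C258A-FOXA1 line WX-02-23 stood above at 2 and below at 1 of 10 (19.0% and 17.4%), and PladB above at 5 and below at 1 of 10 (18.4% and 19.3%). With WX-02-23, 0 of 9 regions stood apart the same way in the parental and the WT-FOXA1 cells, where 7.59% of regions in the genome did, and 9 regions are too few to set the window apart from that share. With PladB at 100 nM, 3 of 9 stood apart the same way in the parental and the C258A-FOXA1 cells (4.65% in the genome). Those 110.8 kb from the start and 4.9 kb into the gene stood above, and that 124.7 kb upstream below. In the parental and the WT-FOXA1 cells 0 of 9 did so (3.1% in the genome). In the WT-FOXA1 and the C258A-FOXA1 cells 0 of 9 did so (7.09%). Here too 9 regions are too few to set the window apart. The parental and C258A-FOXA1 PladB groups had lower backgrounds than their controls, 0.662 to 0.734 against 0.881 to 1.002 and 0.546 to 0.587 against 0.75 to 0.866 reads per base, and the part of depth was not tested.

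The regions whose fold rank moved most like that of the 4.9 kb intragenic region over the libraries were chosen by Spearman's rho among the 8 other shared regions. Over 15 parental libraries they were the region 57.8 kb beyond the start (rho 0.561), that at 110.8 kb (0.507) and that 4.4 kb upstream (0.407). Over the 14 engineered libraries the same regions had values of 0.189, 0.67 and 0.037. The region 91.3 kb upstream had negative values in both sets, -0.407 and -0.429. Depth and list length varied between the libraries and their part was not tested, so these values are given as a description only.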

How the data were processed

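Libraries were made with a commercial ATAC-seq kit, per the labels' protocols. Bowtie2, MACS2 and build hg19 were used, per the submitters' processing notes. For their versions and options, duplicates and any cut-site shift, nothing is given in the sources used here. The authors deposited 1 peak list per library, with per peak a score, a fold enrichment (a ratio over the local background of that library) and the −log10 of a p-value and of a q-value. The lowest deposited −log10 q was 2.00.

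Peaks of the 29 lists (autosomes, X and Y) were merged, and groups were taken from the labels. Summit reads and local background were solved from the deposited fold and p-value of each peak; 100.0% of peaks were matched within 0.001 in −log10 p, 99.81% with 1 solution. The number of regions held was compared by a two-sided exact permutation test, adjusted by Benjamini-Hochberg over the 5 parental comparisons, and the interval of a difference runs from the lowest to the highest difference between single libraries. Gained, lost and apart regions are counts without a test. Scripts were tested on simulated data. Regions were named in detail if they overlapped the gene, were gained or lost, had the highest mean folds outside the gene, or moved most like the 4.9 kb intragenic region. That region was used because no region covered the upstream start. The others described were added to account for every member. The window, the motifs and these rules were chosen with earlier results of these data known.

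Alternatives were peaks with a −log10 q of at least 5, lists of equal length, 50% of a region covered, 1 library against the rule, p-values or summit reads in place of folds (the last added after seeing the data), another reference set for ranks, the replicate number as a block, and each library left out. The labels do not say what a replicate number stands for. Correlations of the deviations of same-numbered libraries were -0.09 to 0.206 in parental cells (other numbers -0.144 to 0.118) and -0.059 to 0.097 in engineered cells (-0.097 to 0.059). With 2 libraries per engineered group, the deviations of the 2 are each other's negatives. The last range is therefore the one before it with its sign reversed, and no separate comparison. Not every pair was over 0.1, so the numbers were not used as pairs. Marker peaks and peak sequences were not analysed here, because no hg19 genome or annotation was used. Computations ran in Python 3.11.15 with scipy 1.17.1, numpy 2.4.6, pandas 2.3.3 and matplotlib 3.10.9.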

Additional observations from a re-analysis of the deposited data

Results flagged for a closer look

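Under PladB at 100 nM the fold rank moved in opposite directions in different cells at 2 shared regions, with every treated library on one side of its controls. At the region 110.8 kb from the start, beyond the 3′ end of GATA2, the rank change was 13.78 percentile points in parental cells and -13.18 in the WT-FOXA1 line, a difference of 26.97 that was not tested, since cell line and batch cannot be told apart. In the C258A-FOXA1 line the change at this region was 16.42, which differs from that of the WT-FOXA1 line by -29.6 (WT minus C258A; exact two-sided permutation p = 0.1667 over 36 arrangements). In parental, WT-FOXA1 and C258A-FOXA1 cells the mean ranks were 34.13, 34.31 and 38.59 with PladB, against 20.35, 47.5 and 22.17 with DMSO. The DMSO groups thus lay farther apart than the PladB groups. Summit reads were 57 to 60 with PladB against 61 to 73 with DMSO in parental cells. They were 52 to 58 against 66 to 67 with WT-FOXA1, and 48 to 51 against 50 to 56 with C258A-FOXA1. At the region 115.2 kb upstream the changes were -15.61 with WT-FOXA1 and 14.29 with C258A-FOXA1, a difference of -29.89 (exact two-sided permutation p = 0.0556, the smallest that 36 arrangements can give). Summit reads there were 37 to 45 with PladB against 43 to 55 with DMSO in the WT-FOXA1 line. In the C258A-FOXA1 line they were 35 in both PladB libraries against 41 in both DMSO libraries. Such opposite changes were found at 1 of 9 regions of the window for parental against WT-FOXA1 and at 2 of 9 for WT-FOXA1 against C258A-FOXA1, and at 2.71% and 5.33% of regions in the genome, and 9 regions are too few to set the window apart from those shares. These regions were picked for opposite signs among 9, so the p-values describe them and carry no adjustment. The arrangements swapped line labels within each treatment, so they also assume that the lines do not differ under DMSO. The C258A-FOXA1 PladB libraries had the lowest backgrounds, 0.546 and 0.587 reads per base; the part of depth was not tested. No group had the 4 libraries needed to single out an outlying one.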

How the results depend on the processing

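The weakest summits of a list had 5 to 8 reads, and a summit with fewer reads is in no list. Of 544 alternative values for 82 results, 392 stayed within the limits set for them and 152 did not. The 392 include 10 differences with the replicate number as a block, which could not change. Of 194 alternative values of differences, 13 had the other sign: 5 rank differences of regions that stood apart, and 8 differences in regions held, none of which carried a call. The cause of each change below was not tested.

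The 5 rank differences changed sign with summit reads ranked in place of folds: -2.27 (115.2 kb upstream, parental WX-02-23 against DMSO), -2.69 (the same region, WX-02-23 against WX-02-43), -5.13 (4.4 kb upstream, WX-02-23 against WX-02-43), -1.54 (4.9 kb intragenic, WT-FOXA1 WX-02-23) and 0.187 (91.3 kb upstream, C258A-FOXA1 WX-02-23). In the same setting, regions apart above and below became 0 and 1 for parental WX-02-23 and for WX-02-23 against WX-02-43, and 1 and 3 for parental PladB at 100 nM. Below, they became 1 for WX-02-43 and 3 for WX-02-23 in both engineered lines. Above, they became 1 for WT-FOXA1 PladB and for Dox and 3 for C258A-FOXA1 PladB. With p-values ranked they became 0 and 1 for parental WX-02-23, 1 and 2 for parental PladB at 100 nM, 0 above for WX-02-23 against WX-02-43, 3 above for C258A-FOXA1 PladB, and below 1 for WX-02-43, 2 for WT-FOXA1 WX-02-23 and 0 for C258A-FOXA1 WX-02-23. Ranks within a comparison's own shared regions gave 1 above for WT-FOXA1 PladB.

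With a −log10 q of at least 5, parental WX-02-23 lost 2 regions, those 79.5 and 28.7 kb upstream, the C258A-FOXA1 line lost 0 with either compound, the Dox difference in regions held was 0.5, and regions apart were 1 above for WT-FOXA1 PladB and for Dox and 2 below for C258A-FOXA1 PladB. With lists of equal length, differences in regions held became 0.5 (WT-FOXA1 WX-02-23), -2.0 (Dox) and -1.0 (C258A-FOXA1 PladB), WX-02-43 lost 1, Dox gained 0 and lost 1, and the C258A-FOXA1 line lost 0 with either compound. With 50% of a region covered, the differences became -4.0 (parental PladB at 100 nM; exact permutation p = 0.1), 0.5 (C258A-FOXA1 WX-02-23) and -1.5 (C258A-FOXA1 PladB), the difference between the lines became -3.0, WX-02-43 and PladB at 10 nM lost 1 each, Dox gained 0 and C258A-FOXA1 WX-02-23 lost 0. With 1 library allowed against the rule, WX-02-43 and PladB at 10 nM lost 1, PladB at 100 nM lost 3, and WX-02-23 gained 1 and lost 1 against WX-02-43.

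Leaving out a library loosens the rules for lost, gained and apart, so these counts could stay or rise but not fall. With each library left out in turn, parental WX-02-23 lost 1 region every time, the lowest count that the rule allowed. Lost regions ran from 0 to 1 in the other parental comparisons and for WT-FOXA1 PladB, 0 to 2 for WT-FOXA1 WX-02-23 and Dox, 1 to 3 for C258A-FOXA1 WX-02-23 (3 without WX-02-23 replicate 2) and 1 to 2 for C258A-FOXA1 PladB. Gained regions ran from 0 to 1 for WX-02-23 against WX-02-43, WT-FOXA1 PladB and C258A-FOXA1 WX-02-23, and 1 to 2 for Dox (2 without no-Dox replicate 2), and were 0 elsewhere. Regions apart ran from 0 to 4 above and 0 to 3 below in parental comparisons and from 2 to 8 above and 1 to 7 below in engineered ones (3 to 6 above for WT-FOXA1 PladB, 1 to 6 below for C258A-FOXA1 WX-02-23). Differences in regions held ran from -3.5 (C258A-FOXA1 WX-02-23) to 2.0 (WX-02-23 against WX-02-43), and the difference between the lines from -1.5 to 1.5. Of the 8 sign changes in regions held, 3 are given above and 5 came with a library left out (WX-02-43 and PladB at 10 nM against DMSO, and WX-02-23 against WX-02-43). Not every library correlated best with its own replicate number (8 of 15 parental and 8 of 14 engineered did). With the replicate number as a block a difference in regions held cannot change, and only its p-value can. For parental PladB at 100 nM, with a difference of -2.0, the exact permutation p was 0.25, the smallest that 3 pairs of libraries can give.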
